A study of Mus musculus with 4 samples.

Results

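The Rab GTPases are the largest branch of the Ras superfamily of small GTP-binding proteins. The genes described here are all protein-coding genes of the GENCODE M21 mouse annotation named Rab, a number and at most 1 letter. There were 59 of them among the 52636 genes of the count table, and 21896 genes of the table are protein-coding. The naming rule uses no expression value, though the family was picked for description with earlier results of these data known. RNA came from the hippocampus of C57BL/6 mice, labelled wild type, on postnatal day 40. It served as input for a YTHDF2 RNA immunoprecipitation (YTHDF2 is a cytoplasmic reader of m6A-modified mRNA), so this is lysate RNA before the antibody step. The study has 2 input and 2 YTHDF2 libraries. The YTHDF2 libraries were not analysed here, so nothing below concerns recovery by the antibody. The labels give neither the number nor the sex of the animals, nor whether tissue was pooled.

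The input libraries are called the shallower (2563069 counts, 21693 genes detected) and the deeper (3334451 counts, 21292 genes). They differ by more than counting error: over 12504 genes with at least 10 counts in both, chi-square per degree of freedom was 11.6, and over the 41 Rab genes among them it was 9.32. With 1 group of 2 libraries no test was possible and no p-value is given. Every ± below is the SD of 2 libraries, which may be technical. Markers of the labelled tissue were present: 7 of 7 neuronal markers had counts in both libraries, and they summed to 7699 ± 104 CPM (counts after scaling each library's total over all genes to 1000000). Summed astrocyte markers stood at 5276 ± 906 CPM, oligodendrocyte markers at 3341 ± 27.4, microglial at 165 ± 2.23, endothelial at 13.5 ± 3.46, blood at 31.3 ± 2.36 and choroid plexus markers at 2.42 ± 0.447 CPM, the last with counts in both libraries for 1 of 2 markers. In bulk tissue, fewer cells of a type and less RNA per cell cannot be told apart.

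A Rab protein is a switch. It binds GTP when a guanine nucleotide exchange factor (GEF) loads it, recruits effectors such as tethers and motors to a membrane, and is turned off when a GTPase-activating protein (GAP) stimulates hydrolysis. Lipid groups on C-terminal cysteines anchor it in the membrane, and GDI proteins extract it again. Different Rabs mark different compartments, and in neurons the Rab3 proteins sit on synaptic vesicles.

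The coding sequences carry both features. The phosphate-binding loop, which holds the nucleotide's phosphates, was searched for on the coding strand as a glycine codon, any 4 codons, then glycine, lysine and serine or threonine codons. It was found in 57 of 59 coding sequences, all but Rab40b and Rab40c, which have only been shown not to hold these codons in this order. The loops of the Rab3 set and of both Rab6 genes are shown because these 2 sets hold the largest shares of Rab mRNA. Capitals mark the 8 codons of the loop, from GENCODE M21 on GRCm38.
Rab3a, chr8:70755925-70755984, plus strand: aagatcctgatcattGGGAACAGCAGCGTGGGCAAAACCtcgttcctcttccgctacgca
Rab3c, chr13:110260578-110260637, minus strand: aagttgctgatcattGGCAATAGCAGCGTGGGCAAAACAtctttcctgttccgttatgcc
Rab3b, chr4:108890377-108890436, plus strand: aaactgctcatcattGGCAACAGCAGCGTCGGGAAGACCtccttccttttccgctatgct
Rab3d, chr9:21915804-21915863, minus strand: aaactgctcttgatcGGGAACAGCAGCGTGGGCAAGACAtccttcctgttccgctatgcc
Rab6b, chromosome 9, plus strand, across 2 exons: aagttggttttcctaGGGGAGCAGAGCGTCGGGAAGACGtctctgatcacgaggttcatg
Rab6a, chromosome 7, plus strand, across 2 exons: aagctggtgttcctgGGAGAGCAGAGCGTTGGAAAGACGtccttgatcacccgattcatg

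All 59 coding sequences had a cysteine codon among their last 4 codons. In 20 the pattern was cysteine, any codon, cysteine, in 15 it was a final pair of cysteines, in 15 a cysteine followed by 3 other codons, and 9 had another arrangement. The last 30 coding bases of members with high levels show these classes, with the cysteine codons that set the class in capitals and the stop codon at the end. Cysteine codons before the last 4 did not count for the class. Rab11a has 1 directly before them, left in lower case.
Rab6b, chr9:103181217-103181246, plus strand: ccggccagcgagggcggcTGCtccTGTtaa
Rab3a, chr8:70758059-70758088, plus strand: gcgccacctcatcaggatTGTgccTGCtga
Rab15, chr12:76800243-76800272, minus strand: gcaaactcttcaaagaccTGCtggTGCtga
Rab11a, chr9:64716849-64716878, minus strand: ccaaaggtgcagtgcTGTcagaacatctaa
Rab1a, chr11:20224816-20224845, plus strand: gtcaagcagtcaggtggaggcTGCTGCtaa
Rab5b, chr10:128679530-128679559, minus strand: cagaacaagagccagTGTTGTagcaactga
Coding sequences ran from 194 to 725 codons, with a median of 215.

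Rab mRNA was broadly present and unevenly divided. The 59 genes summed to 11535 (shallower) and 15827 (deeper) counts, or 4500 and 4747 CPM (mean 4623 ± 174), which is 0.450% (95% exact binomial interval 0.442% to 0.458%) and 0.475% (0.467% to 0.482%) of all counts. A mean of at least 5 CPM was reached by 43 of 59 members (72.9%), against 47.8% of all protein-coding genes. At least 20 CPM was reached by 33 members (55.9%, against 28.9%), and at least 50 CPM by 22 (37.3%, against 15.6%). A further 10 members were detected below 5 CPM. Rab17, Rab19, Rab20, Rab25, Rab37 and Rab39 had 0 counts in both libraries. The 95% exact Poisson interval of 0 counts reaches up to 1.44 CPM (shallower) and 1.11 CPM (deeper). Rab17 and Rab25 are best known from epithelial cells, and Rab37 from secretory granules. Of 8 members of the early endosome group Rab17 and Rab20 were at 0, and of 16 in the endoplasmic reticulum and Golgi group Rab19 and Rab39 were.

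Levels of different genes are compared in FPKM, the authors' values per kilobase of transcript. Rab6b led the family. It lies on chromosome 9 from 103111787 to 103185276 (GRCm38, plus strand), encodes the brain-enriched Rab6 form of Golgi traffic, and had 2705 and 3635 counts in the shallower and the deeper library, or 369 and 381 FPKM (375 mean). It alone held 16.0% of the summed Rab FPKM of 2347 ± 59.97. Rab3a, the main Rab of synaptic vesicles (chromosome 8, 70754679 to 70758677, plus strand), followed with 742 and 1198 counts, or 251 and 312 FPKM. Rab6b exceeded Rab3a in both libraries, and their ranges did not overlap. Among all protein-coding genes Rab6b ranked 82nd and Rab3a 123rd by mean FPKM.

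Next came Rab15, which acts at early and recycling endosomes, with 519 and 621 counts, or 194 and 178 FPKM. Rab3c, another synaptic vesicle Rab, had 1073 and 1915 counts, or 134 and 184 FPKM. Rab6a, the widely expressed Golgi form, had 904 and 1263 counts, or 148 and 159 FPKM. The ranges of Rab15 and Rab3c overlapped, as did those of Rab3c and Rab6a, so the order of these members is not settled, except that Rab15 lay above Rab6a in both libraries. The lowest value of Rab6a lay above the highest of Rab14.

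Rab14, of the Golgi and recycling endosomes, had 563 and 805 counts, or 121 and 133 FPKM. Rab11a, the classic recycling endosome Rab, had 247 and 284 counts, or 127 and 112 FPKM. Rab7, which directs late endosomes to lysosomes, had 413 and 510 counts, or 113 and 108 FPKM. Neighbours among these members overlapped, and all of them stood apart from what follows, since Rab7 at its lowest exceeded Rab1a at its highest.

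Rab1a, which acts between endoplasmic reticulum and Golgi, had 258 and 401 counts, or 55.0 and 65.8 FPKM. Rab12, a substrate of the kinase LRRK2, had 157 and 255 counts, or 53.3 and 66.6 FPKM. The early endosome members Rab5c and Rab5b close the leading 12: Rab5c had 188 and 168 counts, or 62.0 and 42.6 FPKM. Rab5b had 315 and 423 counts, or 51.1 and 52.7 FPKM. Neighbours from Rab1a to Rab5b overlapped, and so did all neighbours further down except Rab22a over Rab23 and Rab4b over Rab42. The top 3 members held 35.9 ± 0.805% of Rab FPKM, the top 8 held 64.4 ± 1.65% and the top 12 held 74.0 ± 1.60%.

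**Figure D1:**
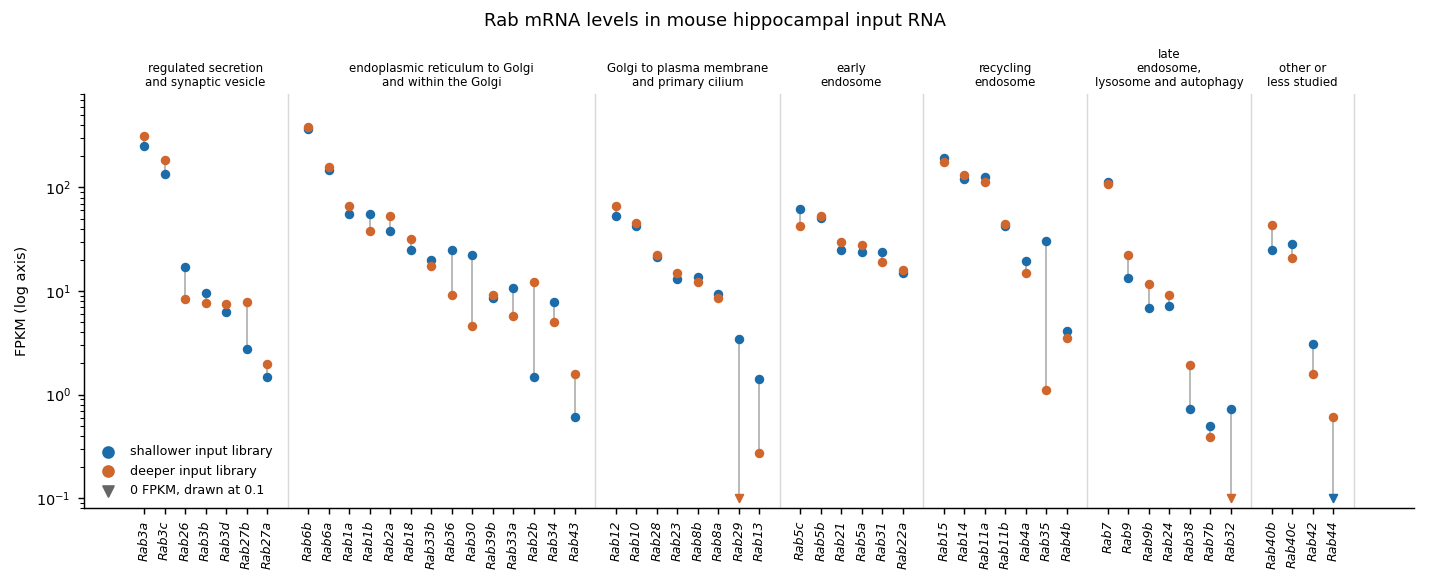
FPKM on a log axis of the 53 detected Rab genes, grouped by trafficking step, with 1 point per input library joined by a line; triangles mark 0 FPKM drawn at 0.1. Rab6b (369 and 381 FPKM) stands highest. Among members at a mean of 5 CPM or more, Rab35, Rab2b, Rab30, Rab27b and Rab36 have the longest lines. Below 5 CPM, long lines such as that of Rab29 (8 and 0 counts) rest on few counts.

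The order depended on the length by which counts were divided. The deposited FPKM used the mean length of all annotated transcripts (within 1 base) for 44 of the 53 detected members. Dividing by the longest transcript instead kept Rab6b and Rab3a first and second, at 214 and 208, but their ranges then overlapped (211 to 218 and 186 to 231). Rab6a moved up to number 3 at 114 and Rab7 to number 4 at 72.7, Rab15 moved down to number 5 at 61.5, and Rab11a moved from number 7 to number 13 at 38.9. The longest transcript was 1.66 times the length used at the median and at most 3.63 times, for Rab30.

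By trafficking step, the endoplasmic reticulum and Golgi group, which has the most members, took the most Rab mRNA. The 16 members acting between endoplasmic reticulum and Golgi or within the Golgi held 42.9% (95% interval 41.97% to 43.8%) of the shallower library's Rab counts and 41.4% (40.6% to 42.1%) of the deeper's. Shares of counts are not divided by transcript length. Per length, these members summed to 790 ± 4.84 FPKM, or 34.1% (shallower) and 33.2% (deeper) of Rab FPKM. Rab6b and Rab6a gave 529 ± 16.3 FPKM of that sum. Beside these, Rab1b, a second Rab1 form, had 262 and 232 counts, and Rab2a, which acts from the intermediate compartment to the Golgi, had 210 and 381. Rab18 of the endoplasmic reticulum and lipid droplets had 143 and 238 counts, and Rab33b, a Golgi and autophagosome Rab, had 82 and 93. Rab39b, whose human counterpart is mutated in X-linked intellectual disability, had 75 and 103 counts, while its relative Rab39 was at 0.

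The 8 members of regulated secretion held 17.1% (16.4% to 17.8%) of the shallower library's Rab counts and 21.2% (20.5% to 21.8%) of the deeper's. These intervals do not overlap, but they cover counting error only, and the 2 libraries differ by more than that. Summed FPKM was 423 and 530 (476 ± 75.6), and the log2 ratio of the summed counts was 0.53 (95% interval 0.45 to 0.61). Rab3a and Rab3c carried this group. In the Rab3 set Rab3a made up 61.8 ± 1.15% of FPKM, Rab3c 34.8 ± 1.82%, Rab3b 1.95 ± 0.610% and Rab3d 1.51 ± 0.0602%. Rab3b had 36 and 38 counts (9.54 and 7.74 FPKM) and Rab3d, best known from exocrine and endocrine granules, had 30 and 47 (6.23 and 7.51 FPKM). The Rab27 genes, which serve dense-core granules, melanosomes and exosomes, were low: Rab27b had 28 and 103 counts (2.79 and 7.88 FPKM), and Rab27a had 8 and 14 (1.48 and 2.00 FPKM). Rab26, a Rab of secretory and synaptic vesicles, had 53 and 34 counts.

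The 8 recycling endosome members summed to 513 ± 35.8 FPKM, mostly from Rab15, Rab14, Rab11a and Rab11b. They held 15.2% (shallower) and 13.1% (deeper) of Rab counts, less than regulated secretion in both libraries. By FPKM the order of these 2 groups differed between the libraries: recycling held 23.3% (shallower) and 20.4% (deeper), and regulated secretion 18.3% and 22.2%. Rab11b had 220 and 301 counts, and Rab4a, which serves the fast recycling route, had 52 and 52. The 8 early endosome members summed to 194 ± 8.30 FPKM. Of these Rab21, an integrin traffic Rab, had 172 and 273 counts, Rab5a 144 and 219, Rab22a 193 and 266 and Rab31 210 and 223. The ranges of early endosome and recycling sums did not overlap. Rab15 (194 and 178 FPKM) acts at both endosomes but was counted as recycling only, and which sum was higher depends on that choice.

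The 8 members from Golgi to plasma membrane and primary cilium summed to 164 ± 8.90 FPKM. In this group Rab10 had 380 and 535 counts, Rab8b 165 and 193, Rab8a 43 and 52, Rab23, a negative regulator of Hedgehog signalling, 78 and 116, and Rab28, a cilium and photoreceptor Rab, 85 and 114. Rab29, a binding partner of the kinase LRRK2, had 8 and 0 counts. The 7 late endosome, lysosome and autophagy members summed to 148 ± 7.61 FPKM, of which Rab7 gave 110. Rab9 and Rab9b, of transport from late endosome to the trans-Golgi, had 31 and 68 and 70 and 157 counts. Rab38 and Rab32, which serve melanosomes and related organelles, had 2 and 7 and 3 and 0 counts. The 4 remaining members summed to 61.7 ± 7.14 FPKM, led by Rab40b (48 and 110 counts) and Rab40c (124 and 117), which pair a Rab domain with a SOCS box.

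Paralogs were unequal in most sets. Rab6b was 70.9 ± 0.568% of Rab6 FPKM, Rab11a 73.3 ± 2.41% of Rab11, Rab4a 81.7 ± 1.25% of Rab4 and Rab7 99.6 ± 0.0593% of Rab7 with Rab7b. Rab8b at 59.0 ± 0.570% and Rab9 at 65.8 ± 0.354% led their sets in both libraries. In the Rab1 set the order turned: Rab1a was 49.7% (shallower) and 63.4% (deeper). It also turned between Rab40b (46.3% and 67.7%) and Rab40c, and between Rab5c (45.3% and 34.5%) and Rab5b (37.3% and 42.8%). These turns depended on the length used. Per kilobase of the mean protein-coding transcript, Rab1b exceeded Rab1a in both libraries (98.5 and 67.0 against 43.2 and 51.7 CPM). Rab40c likewise exceeded Rab40b (30.2 and 21.9 against 10.1 and 17.7), and Rab5c exceeded Rab5b (62.0 and 42.6 against 38.6 and 39.9). By longest transcript Rab1 and Rab40 turned, while Rab5b exceeded Rab5c in both libraries. Coding sequences of paralogs held few long identical stretches. Rab6b and Rab6a were identical at 78.5% of 627 aligned bases with no identical run over 14 bases, Rab3a and Rab3c at 76.2% (longest run 20), and Rab1a and Rab1b at 77.6% (longest run 38).

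**Figure D2:**
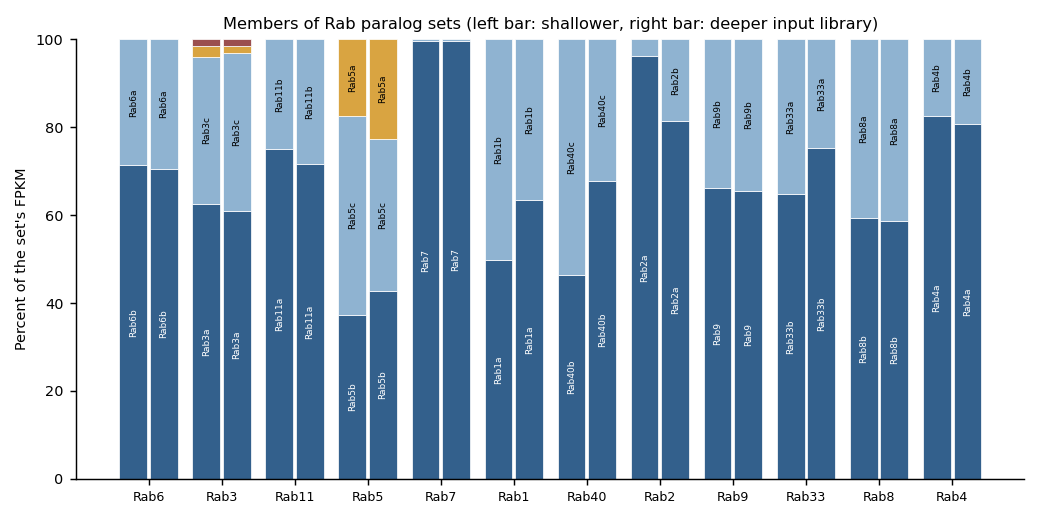
Percent of each paralog set's FPKM held by each member, for the 12 sets with a mean of at least 20 FPKM; the left bar of a pair is the shallower and the right bar the deeper library. Rab6b, Rab3a, Rab11a and Rab4a lead their sets at similar shares in both bars, while Rab1, Rab5 and Rab40 change order. That change of order was not seen with every transcript length.

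Some copies of Rab mRNAs elsewhere in the genome were closer to a Rab gene than its paralogs were. For 9 genes annotated as processed pseudogenes (intronless copies of an mRNA), at least 20% of the 31-base words of the transcript also occurred in a Rab gene. Gm27186 is among them because it lies within Rab27a and shares 149 exon bases with it on the same strand. All 9 have 1 exon, while the genes they match have 2 to 8. Together they took 936 and 1226 counts, or 7.51% and 7.19% of the counts on Rab genes plus copies. Stretches of 60 bases from pairs with many counts are shown to make the likeness visible, with bases of the copy that differ from the Rab gene in capitals.
Rab7, chr6:88012349-88012408, minus strand: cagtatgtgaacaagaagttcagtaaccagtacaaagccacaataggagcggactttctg
Rab7-ps1, chr9:54825146-54825205, minus strand: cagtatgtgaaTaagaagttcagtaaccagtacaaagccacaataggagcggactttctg
Rab6a, chr7:100629846-100629905, plus strand: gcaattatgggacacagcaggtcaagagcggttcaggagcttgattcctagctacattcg
Gm13082, chr4:143671252-143671311, plus strand: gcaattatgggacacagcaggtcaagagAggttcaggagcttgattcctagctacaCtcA
Rab2a, chr4:8577964-8578023, plus strand: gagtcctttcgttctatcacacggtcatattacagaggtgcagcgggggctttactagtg
Gm5865, chr5:44406340-44406399, minus strand: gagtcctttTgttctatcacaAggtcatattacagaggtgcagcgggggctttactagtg

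Rab7-ps1 was identical to Rab7 at 98.4% of 622 aligned coding bases and had 232 and 271 counts, 35.97% and 34.7% of the counts of Rab7 and its copy. Gm5865 was identical to Rab2a at 96.8% of 634 bases and had 201 and 249 counts, or 48.9% and 39.5% of the pair. Gm13082 matched Rab6a at 95.4% of 561 bases and had 242 and 407 counts, 21.1% and 24.4% of the pair. In each of these pairs the copy had the higher FPKM: 138 against 110 for Rab7, 120 against 46.0 for Rab2a, and 193 against 154 for Rab6a. The copies' counts were divided by shorter lengths: 622 bases against 1422 for Rab7, 637 against 2133 for Rab2a, and 561 against 2377 for Rab6a. In mean CPM each copy lay below its gene: 85.9 against 157 for Rab7, 76.5 against 98.1 for Rab2a, and 108 against 366 for Rab6a. Rab11b-ps2 matched Rab11b at 99.8% of 654 bases, with a run of 502 identical bases, and had 120 and 141 counts. Gm13991 matched Rab5b at 99.4% of 648 bases and had 125 and 132 counts. Gm20689 was identical to Rab8b over all its 279 bases and had 13 and 23 counts. Rab9b-ps1 had 3 and 3 counts. Gm48789 and Gm27186 had 0 in both libraries, and their alignments to the coding sequences of Rab33b and Rab27a covered only 20 and 21 bases.

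The counter's treatment of reads that map to several places is not given in the sources used here, so how many of the copies' counts came from the Rab mRNAs was not tested. With the copies' counts added to the genes they match, an addition chosen after the data were seen, Rab6a rose from 154 to 199 FPKM, Rab7 from 110 to 171 and Rab2a from 46.0 to 81.9, which made them numbers 3, 5 and 9 in the order. With the same addition Rab5b rose from 51.9 to 70.3 FPKM (number 12 to number 10). Rab11b rose from 43.5 to 65.6 FPKM (number 16 to number 11). Rab6b stayed first at 375 FPKM.

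**Figure D3:**
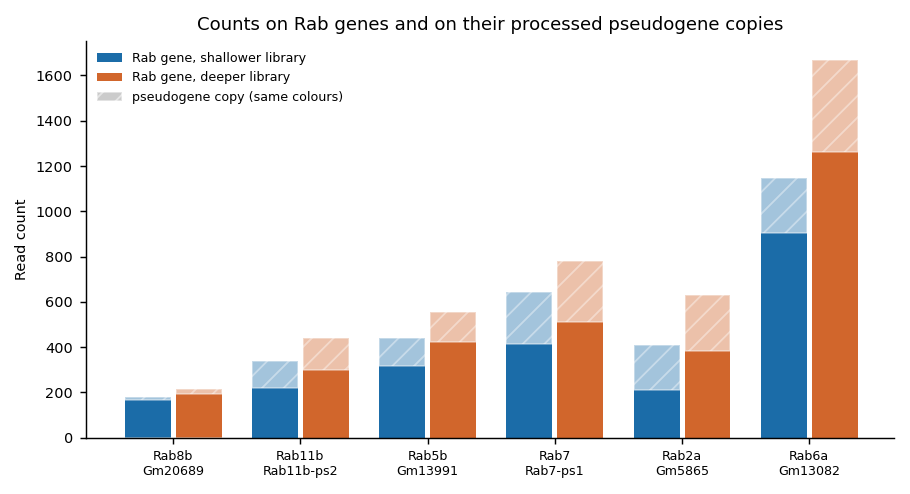
Read counts of 6 Rab genes (solid) with the counts of their processed pseudogene copies stacked on top (hatched), in the shallower (blue) and the deeper (orange) library; the copies with under 20 counts in all are left out. The copy's part is 48.9% and 39.5% of the pair for Rab2a, and 7.30% and 10.6% for Rab8b.

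Some low members share exons with another annotated gene, and their counts are uncertain for that reason. Rab43 (3 and 10 counts) shares 75.4% of its exon bases with Gm45140 on the same strand, which had 61 and 94. Rab4b (8 and 9 counts) shares 65.0% with Gm21983 on the same strand, with 36 and 55. Rab24, linked to autophagy (21 and 35 counts), lies opposite Prelid1 over 62.4% of its exon bases, and Prelid1 had 140 and 165. Rab2b, the second Rab2 form, had 6 and 64 counts and shares 59.3% with Gm43766 on the opposite strand, which had 70 and 47. The strand setting of the counting is not given in the sources used here, so such overlapping genes cannot be told apart by it. Rab2b and Gm43766 together had 76 and 111 counts (log2 ratio 0.31, interval -0.12 to 0.75). Higher members overlap other genes too, over smaller parts of their exons. Rab6a shares 19.0% with Mrpl48 on the opposite strand, which had 12 and 122 counts. The log2 ratio was 0.25 for Rab6a alone and 0.36 for their sum (interval 0.24 to 0.48). Rab11a shares 3.58% with Gm47308 on the same strand, with 1 and 24 counts.

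Most well-expressed Rab genes differed little between the 2 libraries, and a few differed strongly. Each ratio is the deeper library over the shallower as a log2 difference on TMM-scaled log2(CPM + 0.5), where TMM is edgeR's trimmed-mean scaling, and a gene was called apart at 2-fold or more with a mean of at least 20 CPM. This understates differences of low genes. Of 33 members at that level 4 were apart (12.1%), against 3.93% of the 6915 genes at that level. By direction, 1 member was higher in the deeper (1.98% of all genes were) and 3 were higher in the shallower (1.95% of all genes). Within 1.5-fold lay 25 of the 33 members (75.8%), against 84.4% of all genes. At a mean of at least 5 CPM, 5 of 43 members were apart (11.6%, against 9.53% of 12218 genes), of which 2 were higher in the deeper (3.64% of all genes) and 3 in the shallower (5.88%). At 50 CPM 0 of 22 were apart, against 2.42% of 3639 genes (1.46% higher in the deeper, 0.962% in the shallower). The higher share at 20 CPM rests on 4 genes, each of which was below 20 CPM in 1 of the 2 libraries.

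Rab35, an endosomal recycling Rab that also acts in neurite growth (chromosome 5, 115631908 to 115647736, plus strand), had 148 (shallower) and 7 (deeper) counts, or 30.5 and 1.11 FPKM. It was 20.5-fold higher in the shallower (log2 ratio -4.36, 95% interval -5.98 to -3.56). Its neighbours differed less: Gcn1l1, 9254 bases before it, had 395 and 435 counts, and Bicdl1, 439 bases after it, had 144 and 112 (log2 ratio -0.59, interval -0.97 to -0.23). Rab35 shares 0% of its 31-base words with other genes and overlaps no annotated exon of another gene.

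Rab30, a Golgi Rab (chromosome 7, 92741603 to 92844535, plus strand), had 148 and 40 counts, or 22.1 and 4.60 FPKM, a 4.23-fold difference (log2 ratio -2.08, interval -2.66 to -1.61). Its neighbour Pcf11, 71669 bases before it, leaned the other way with 87 and 155 counts. Rab36, which has been linked to lysosome positioning (chromosome 10, 75037058 to 75054748, plus strand), had 99 and 48 counts, or 24.7 and 9.19 FPKM, a 2.38-fold difference (log2 ratio -1.25, interval -1.81 to -0.77). Bcr, 5844 bases after it, had 507 and 500. Rab27b was the only member at 20 CPM or more that was 2-fold higher in the deeper library, at 28 and 103 counts (3.03-fold, log2 ratio 1.60, interval 1.03 to 2.30). With means of 26.5 to 34.9 CPM, Rab36, Rab35 and Rab30 are of middle level, and Rab27b at 20.9 CPM lies just inside the minimum.

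Just outside the limit lay Rab40b (48 and 110 counts, 1.92-fold) and Rab9b (70 and 157 counts, 1.89-fold), both higher in the deeper library. Rab9 (1.83-fold) and Rab26 (1.80-fold) were both below 20 CPM. At the lower minimum of 5 CPM, Rab2b was added to the members apart, at 7.58-fold.

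**Figure D4:**
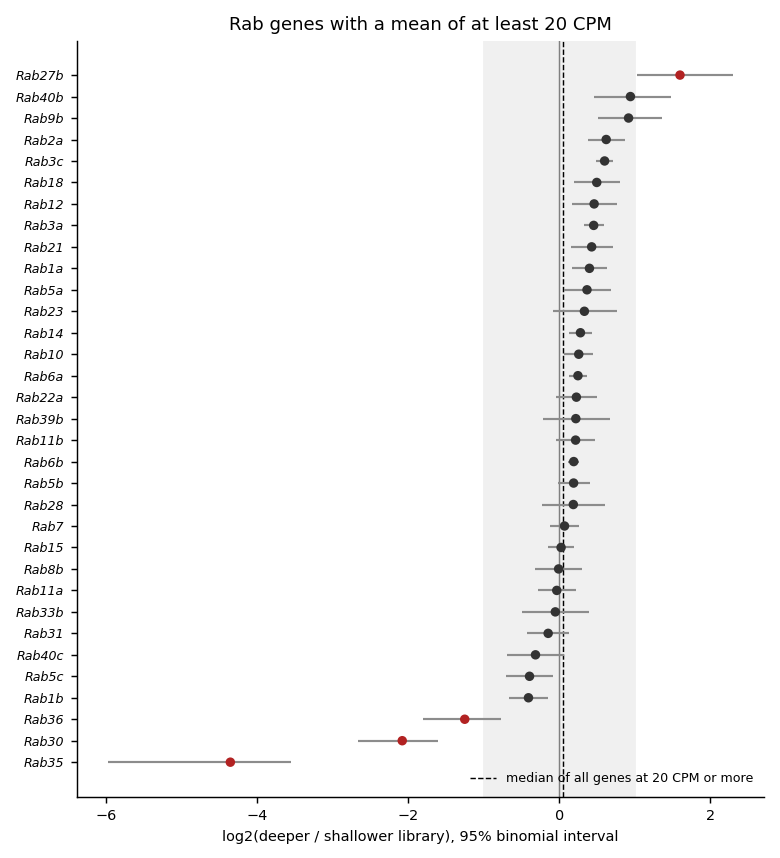
log2 ratio of the deeper over the shallower library for the 33 Rab genes at 20 CPM or more on average, with 95% binomial intervals that cover counting error only; the grey band marks less than 2-fold, red points are the 4 genes outside it, and the dashed line is the median of all genes at that level (0.04). Rab35, Rab30 and Rab36 stand far to the left and Rab27b to the right, while most other members lie slightly right of 0.

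The family as a whole lay slightly towards the deeper library. At a mean of at least 5 CPM the median log2 ratio of the 43 members was 0.22, with 28 above 0 and 15 below, against -0.00 for all genes at that level. At 20 CPM it was again 0.22, with 23 of 33 members above 0, against 0.04 and 55.0% of all genes. High members on the deeper side included Rab3c (0.60, interval 0.49 to 0.71), Rab2a (0.62, 0.38 to 0.87), Rab3a (0.46, 0.32 to 0.59) and Rab1a (0.40, 0.17 to 0.63). Rab1b (-0.41, -0.67 to -0.15) and Rab5c (-0.39, -0.71 to -0.09) lay on the shallower side. Transcript GC content moved with the ratio: its Spearman correlation with the log2 ratio was -0.349 over the 33 members and -0.405 over 6309 protein-coding genes, which share the same 2 libraries. The GC of these 33 members ran from 36.8% to 58.9%. With the trend of protein-coding genes taken out, the median of the 43 members at 5 CPM or more was 0.16, against 0.037 for protein-coding genes. Summed astrocyte markers were 4635 (shallower) and 5917 (deeper) CPM, the 2 pyramidal cell markers 819 and 693 CPM, and the dentate granule cell marker Prox1 211 and 227 CPM. Their part in the ratios was not tested.

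Genes that run the Rab cycle were mostly detected. Of the prenylation and membrane cycle list, 9 of 10 symbols matched and 8 genes reached 5 CPM. All 9 summed to 552 ± 89.9 CPM. Gdi2, a GDI, had 252 and 371 counts (57.5 and 65.1 FPKM). Rabac1, a prenylated Rab acceptor of the Golgi, had 129 and 151 (74.2 and 66.8 FPKM). Of the 6 list genes at 20 CPM, 1 was apart, where 3.93% of all genes were: Chm, the Rab escort protein that presents new Rabs for prenylation, had 71 and 171 counts (log2 ratio 1.02, interval 0.63 to 1.45).

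Of the GEF list 40 of 47 matched genes reached 5 CPM, and the 47 summed to 2464 ± 250 CPM. At 20 CPM 0 of 32 were apart, against 3.93% of all genes. Their median log2 ratio was -0.12. The highest were Sbf1, the pseudophosphatase MTMR5, with a DENN domain (823 and 837 counts, 159 and 124 FPKM), Dennd5a, which acts on Rab39 (568 and 666 counts, 105 and 94.6 FPKM), and Rin1, a Rab5 GEF enriched in forebrain neurons (293 and 257 counts, 84.2 and 56.8 FPKM). Of the GAP list 30 of 33 genes reached 5 CPM, and the 33 summed to 1782 ± 69.9 CPM. The median log2 ratio of those at 20 CPM was 0.04. Rabgap1l had 443 and 813 counts (92.9 and 131 FPKM), Tbc1d9b 369 and 566 (90.2 and 106 FPKM) and Tbc1d10b, which acts on Rab35 and Rab27, 198 and 227 (73.6 and 64.8 FPKM). Of 21 GAP genes at 20 CPM, 1 was apart, again where 3.93% of all genes were: Sgsm3, with 79 and 40 counts (log2 ratio -1.19, interval -1.80 to -0.65).

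The effector list is the longest. Of 69 matched genes 56 reached 5 CPM, and the 69 summed to 5025 ± 316 CPM. At 20 CPM 0 of 47 were apart, against 3.93% of all genes, and their median log2 ratio was 0.04. Synapsin I, encoded by Syn1, a synaptic vesicle protein that binds Rab3, had 1608 and 1941 counts (194 and 180 FPKM). Myo5a, the myosin Va motor that binds Rab11 and Rab27 complexes, had 1043 and 1603 counts (143 and 169 FPKM). Rab11fip4, a Rab11 partner, had 1273 and 1555 counts (127 and 119 FPKM).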

How the data were processed

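The authors deposited whole-number read counts per gene and FPKM per gene for 2 hippocampal input libraries. Per the submitters' processing notes, GRCm38, BWA 0.7.12, HOMER and MACS2 2.1.0 were used, with no role stated. Not given in the sources used here were the counter, annotation, strand and multi-mapping settings. A deposited FPKM value is the count over the library's total and a gene length. The column numbers do not match the title replicates, so libraries are named by depth. GENCODE M21 named 52489 of the 52636 genes.

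The Rab genes, trafficking groups and pathway lists were chosen with earlier results of these data known. CPM used totals over all genes. Ratios used log2(CPM + 0.5) with TMM factors of 1.05 and 0.951 (edgeR 4.0.16), and DESeq2 1.42.0 size factors as an alternative. Intervals of 95% (exact Poisson or binomial, scipy 1.17.1) cover counting error only and leave out the 0.5. Only the ratio calculation was tested on simulated counts, which held counting error alone and so spread less than these libraries. Named genes were the 12 highest by FPKM, those at least 2-fold apart at 20 CPM, the Rab3 and Rab27 genes, members at 0, and for other lists the 3 highest and those apart; further members illustrate their group. A gene that this rule names is not reported here. Shared sequence was measured in 31-base words of transcripts. A planned comparison of proteins was replaced by coding sequences from GENCODE, aligned with Biopython 1.88. Sequences are from GRCm38, and the YTHDF2 libraries were not analysed here.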

Additional observations from a re-analysis of the deposited data

How the results depend on the processing

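With 2 libraries and no test, counts and levels can be described only, and members with few counts have wide intervals. No paired analysis was possible because the columns carry no replicate numbers of the labels and the YTHDF2 group was not analysed here. Members at 5 CPM or more numbered 43, and 41 to 42 in either library alone. The summed level of 4623 CPM lay at 4500 to 4747 in either library, was 6283 CPM when scaled to counts on nuclear protein-coding genes only, and 4990 CPM with pseudogene copies added, an alternative chosen after seeing the data. The number of members at least 2-fold apart was 4 without factors, with DESeq2 size factors, with a pseudocount of 2 CPM, and with overlapping genes or copies added, and each time these were Rab27b, Rab30, Rab35 and Rab36. It was 5 at a minimum of 5 CPM and 0 at 50 CPM, where none of the 4 genes is tested. The members' median log2 ratio of 0.22 was 0.072 without factors (all genes -0.14), and 0.16 with the GC trend taken out (protein-coding genes 0.037). In its other alternatives (DESeq2 factors, other minimums, pseudocount 2, and 33 members sharing under 10% of 31-base words) it lay between 0.19 and 0.24. The regulated secretion share of Rab counts was 17.1% to 21.2% in either library, and 20.2% of FPKM. Rab6b had the highest mean under every length tried, at 369 to 381 FPKM in either library. By longest transcript, which is longer than the mean used, it had 214, and in the deeper library alone Rab3a (231) then exceeded it (218).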
